A study of Mus musculus with 15 samples.

Results

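The genes described here are the chemokines, the small secreted or membrane-bound proteins that draw white blood cells along a gradient, and the receptors on those cells that read them. They were taken by symbol: every gene named Ccl, Ccr, Cxcl, Cxcr, Xcl or Xcr with a number, or beginning with Cx3c, that had at least 1 probe set paired with that gene alone. This gave 49 of 12393 measured genes, 32 ligands and 17 receptors, on 66 probe sets. They were measured in whole mouse hearts 48 hours after abdominal surgery, with 15 arrays in 5 groups of 3. WT Max Dep and WT Min Dep hearts came from C57/BL6 wild-type mice with polymicrobial sepsis from caecal ligation and puncture (CLP), and WT sham hearts came from wild-type mice whose caecum was only mobilised and put back. KO CLP and KO sham hearts came from mice of the congenic line B6.129P2-Nos2tm1Lau/J, which lack inducible nitric oxide synthase (iNOS), with the same 2 operations. All groups, sham included, had isoflurane, buprenorphine and saline, and then ketamine, xylazine and a carotid catheter for invasive measures of contractility before the heart was frozen. What sets Max Dep hearts apart from Min Dep hearts is not given in the labels, beyond a title on sepsis-induced myocardial depression, and the labels used here state neither age nor sex.

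Chemokines of the CC class act mainly on monocytes, lymphocytes and eosinophils. CXC chemokines with the sequence glutamate-leucine-arginine before the first cysteines act on neutrophils, and those induced by interferon act on activated T cells. In sepsis, macrophages, endothelium, fibroblasts and heart muscle cells can all make chemokines when bacterial products or cytokines reach them, largely through the transcription factor NF-kappaB, and in the heart the monocyte-attracting ligands bring Ccr2-bearing monocytes into the muscle. The genes lie in clusters: in the RefSeq gene table, 14 of the members lie on chromosome 11, 9 on chromosome 5 and 11 on chromosome 9. On chromosome 11 Ccl2, Ccl7, Ccl11, Ccl12, Ccl8 and Ccl1 follow each other in that order. The targeted Nos2 gene is also on chromosome 11, and a congenic line can keep donor-strain DNA beside its targeted gene. How far that stretch reaches in these mice is not given.

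Promoters of 6 members are shown because these genes carry the single-heart and knockout patterns described below, or stand for the interferon-induced group. Each is the stretch of 250 bases before the RefSeq start in GRCm38.p6, printed 5′ to 3′ on the gene's strand. Capitals mark an NF-kappaB-type match in Cxcl1 and Cxcl2, an NF-kappaB-type and an interferon-response-type match in Cxcl10, and a TATA box in Cxcl13, Ccl8 and Ccl12.
Cxcl1, chr5:90890995-90891244, plus strand: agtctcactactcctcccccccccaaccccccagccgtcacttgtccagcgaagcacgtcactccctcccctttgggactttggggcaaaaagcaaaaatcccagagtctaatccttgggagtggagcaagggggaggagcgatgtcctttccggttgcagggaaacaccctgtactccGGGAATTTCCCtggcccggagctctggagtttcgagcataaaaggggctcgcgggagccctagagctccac
Cxcl2, chr5:90903649-90903898, plus strand: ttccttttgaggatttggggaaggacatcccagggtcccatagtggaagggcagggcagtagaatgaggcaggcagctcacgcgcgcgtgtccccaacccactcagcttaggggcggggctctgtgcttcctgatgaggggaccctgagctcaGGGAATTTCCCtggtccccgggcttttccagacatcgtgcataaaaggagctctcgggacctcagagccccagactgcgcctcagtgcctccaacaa
Cxcl10, chr5:92348890-92349139, minus strand: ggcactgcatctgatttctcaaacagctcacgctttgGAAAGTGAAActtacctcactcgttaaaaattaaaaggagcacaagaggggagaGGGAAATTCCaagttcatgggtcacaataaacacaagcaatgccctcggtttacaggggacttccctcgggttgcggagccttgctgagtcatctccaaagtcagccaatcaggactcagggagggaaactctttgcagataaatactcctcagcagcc
Cxcl13, chr5:95956689-95956938, plus strand: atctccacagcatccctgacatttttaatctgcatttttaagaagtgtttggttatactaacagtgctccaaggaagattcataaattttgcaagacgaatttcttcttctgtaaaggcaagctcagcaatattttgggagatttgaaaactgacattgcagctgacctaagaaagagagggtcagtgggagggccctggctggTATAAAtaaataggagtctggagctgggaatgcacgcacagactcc
Ccl8, chr11:82114935-82115184, plus strand: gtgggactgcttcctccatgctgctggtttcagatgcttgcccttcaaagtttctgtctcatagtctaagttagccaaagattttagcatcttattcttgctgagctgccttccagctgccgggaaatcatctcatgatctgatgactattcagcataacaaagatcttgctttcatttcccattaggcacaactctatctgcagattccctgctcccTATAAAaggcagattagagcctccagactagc
Ccl12, chr11:82101595-82101844, plus strand: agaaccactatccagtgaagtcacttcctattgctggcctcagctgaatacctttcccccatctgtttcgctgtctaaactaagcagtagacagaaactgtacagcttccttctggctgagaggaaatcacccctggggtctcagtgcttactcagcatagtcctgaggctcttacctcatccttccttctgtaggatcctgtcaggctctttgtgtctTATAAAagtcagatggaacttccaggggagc
The NF-kappaB-type motif searched was GGGANNTTCC on both strands, and in Cxcl1 and Cxcl2 overlapping matches on the 2 strands make up the run in capitals, which begins 71 bases before the start in Cxcl1 and 97 bases before it in Cxcl2. In Cxcl10 this motif begins 159 bases and the interferon-response-type motif, GAAANNGAAA on both strands, 213 bases before the start. The first was found in 5 of 36 members with a window (Ccl1, Ccr3, Cxcl1, Cxcl2 and Cxcl10), against 1.21% of all 32851 windows of that length. The second was found in Cxcl10 and Cxcl14, against 2.98% of all windows. TATAAA, also searched on both strands, was found in 11 members, against 12.4% of all windows. A member was counted if any of its windows held the motif, while the share over all is per window, so these are unlike units. A match describes letters and is not a bound site.

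Wild-type values are standardised scores, in which each probe set was brought to the same spread over the 9 arrays. A value therefore says where a heart stands relative to the other 8 for that gene, and neither levels nor folds can be read from it. Knockout values are log differences centred per probe set, with the log base not given, so that 0 marks the centre and not an absent transcript. The genotypes were deposited in separate tables from different array models, so genotype, table and array model cannot be told apart, and the loss of Nos2 transcript could not be checked across them. Replicate numbers only name arrays, and values are given in their order. KO CLP replicate 1 was left out, because its column lay between those of the other CLP hearts in 76.0% of probe sets, against 32.8% to 34.4% for the sham columns. Hearts did not stand alike on the Y-linked gene Eif2s3y: WT sham replicate 1 was at -2.48, against -0.68 or more in the other wild-type hearts, and KO sham replicate 2 was at 5.76, against 0.10 or less in the other knockout hearts. Values without these hearts are given for some members only. Leaving out WT sham replicate 1 moved the CLP minus sham differences of Ccl1, Ccr4 and Cxcl14 most. Ccl1 went to 1.29, against 0.38 with that heart, Ccr4 to 0.49, against -0.43, and Cxcl14 to -0.96, against -0.03.

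None of the 49 members passed an adjusted p of 0.05 between CLP hearts and sham hearts of the wild type (limma, unmoderated, Benjamini-Hochberg over all 12393 genes), against 0.718% of all genes. At an unadjusted p under 0.05 there were 6 members, 12.2% of them, against 18.6% of all genes. Ccr1, Cxcl11 and Cxcl16 were on the higher side (3 members, against 9.23% of all genes), and Ccl17, Ccl24 and Ccr10 on the lower (3 members, against 9.38%). The CLP and sham hearts did not overlap for 2 members, Cxcl11 and Ccr10, 4.08% of them, against 12% of all genes. Both shares of members lay below the share over all genes. The 5′ minus 3′ difference of the Gapdh and Actb control probe sets, a sign of RNA quality, averaged -1.85 to 0.53 in CLP hearts, against 0.39 to 1.76 in sham hearts, and with it as a covariate 0 members passed. That covariate moved Ccl24 to -0.67, against -1.48 without it, Ccr3 to 0.51 against 1.06, Xcl1 to -0.50 against -1.18 and Ccl27a to 0.90 against 1.44. The median difference over the members was 0.28 standardised units, against 0.02 over all genes, with the 17 receptors at 0.40 and 11 of these higher. The heatmap of members by array gives each of them in each heart.

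**Figure D1:**
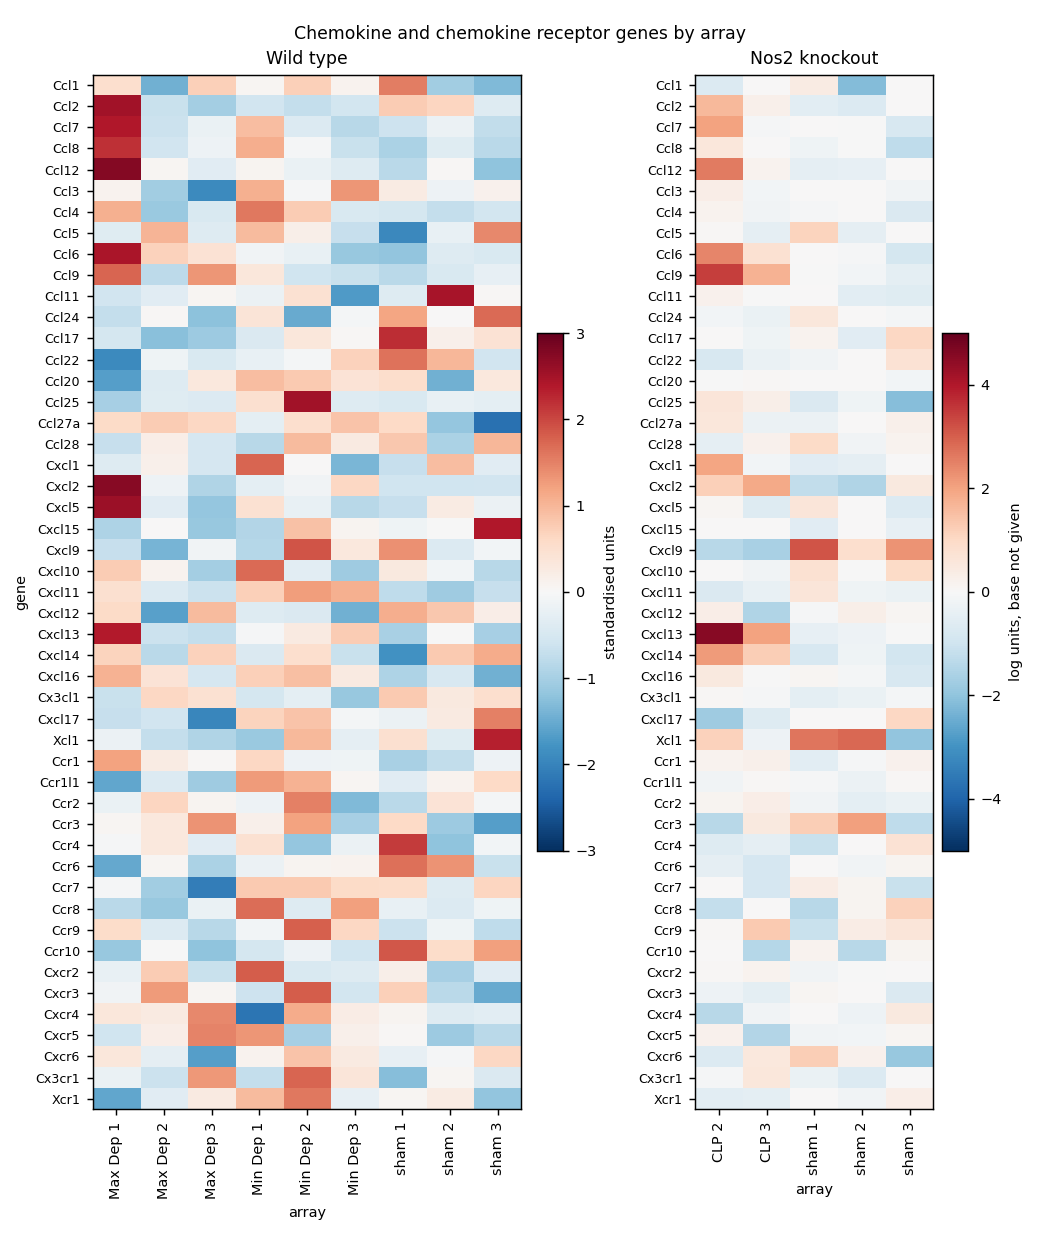
Value of each of the 49 members in each array, wild type in standardised units and knockout in log units, with rows grouped by role. The column of WT Max Dep replicate 1 holds 8 members above 2, while the other columns of that group hold 0.

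Ligands that draw monocytes were highest in 1 and the same heart. Ccl2, the main ligand of the monocyte receptor Ccr2, had 2.51, -0.66 and -1.03 in Max Dep hearts, -0.58, -0.72 and -0.56 in Min Dep hearts and 0.76, 0.64 and -0.40 in sham hearts. Ccl7, another Ccr2 ligand, had 2.41, -0.65 and -0.21 in Max Dep hearts, 0.92, -0.41 and -0.83 in Min Dep hearts and -0.63, -0.16 and -0.74 in sham hearts. Ccl12, the third Ccr2 ligand of the mouse, had 2.75, 0.067 and -0.34 in Max Dep hearts, 0.081, -0.21 and -0.38 in Min Dep hearts and -0.80, 0.024 and -1.20 in sham hearts. In each of the 3 genes the highest heart was Max Dep replicate 1, and the other Max Dep hearts lay among or below the rest. Ccl8, which in the mouse signals mainly through Ccr8, had 2.19, -0.57 and -0.14 in Max Dep hearts, 1.08, -0.041 and -0.68 in Min Dep hearts and -0.95, -0.36 and -0.81 in sham hearts, again with that heart on top. The CLP minus sham differences were -0.51 ± 0.84 for Ccl2, 0.72 ± 0.78 for Ccl7, 1.01 ± 0.72 for Ccl8 and 0.99 ± 0.74 for Ccl12 (standardised units, SE), with adjusted p from 0.522 to 0.804. Without that heart they were -1.06 ± 0.31, 0.24 ± 0.46, 0.59 ± 0.45 and 0.51 ± 0.32 in the same order. For Ccl2 the remaining 5 CLP hearts all lay below the 3 sham hearts.

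The same heart was high for the rodent chemokines Ccl6 and Ccl9, made mainly by myeloid cells and acting through Ccr1. Ccl6 had 2.45, 0.68 and 0.43 in Max Dep hearts, -0.095, -0.22 and -1.13 in Min Dep hearts and -1.19, -0.38 and -0.47 in sham hearts. All 3 Max Dep hearts were above every Min Dep and sham heart, the highest being replicate 1. The Max Dep minus sham difference of Ccl6 was 1.86 ± 0.62, with an adjusted p of 0.224, and without replicate 1 it was 1.23 ± 0.42. Ccl9 had 1.74, -0.78 and 1.31 in Max Dep hearts and 0.34, -0.60 and -0.67 in Min Dep hearts. In sham hearts it had -0.81, -0.46 and -0.25. On this mean of 2 probe sets, Max Dep replicates 1 and 3 were high and replicate 2 was not. That rested on 1 probe set, with replicate 2 at -2.01. In the other, Max Dep hearts had 2.18, 0.44 and 0.87, all above every Min Dep heart (0.41 or less) and every sham heart. The CLP minus sham differences of these probe sets were 0.04 and 1.41. Ccr1, the receptor of Ccl6 and Ccl9, had 1.21, 0.24 and 0.035 in Max Dep hearts, 0.62, -0.16 and -0.14 in Min Dep hearts and -0.97, -0.74 and -0.15 in sham hearts. On this mean of 2 probe sets, Max Dep hearts lay above sham hearts for Ccr1 with no overlap. In 1 of the probe sets sham replicate 3, at 1.61, was above Max Dep replicates 2 and 3, at 0.53 and 0.055. The CLP minus sham difference of Ccr1 was 0.92 ± 0.36, with an adjusted p of 0.252. It was 1.25 ± 0.55 and 0.59 ± 0.80 for the single probe sets.

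Neutrophil-attracting CXC ligands did not share 1 pattern. Cxcl2, a ligand of the neutrophil receptor Cxcr2, had 2.74, -0.15 and -0.91 in Max Dep hearts, -0.28, -0.098 and 0.61 in Min Dep hearts and -0.61, -0.59 and -0.58 in sham hearts. Cxcl5, another Cxcr2 ligand, had 2.56, -0.35 and -1.15 in Max Dep hearts, 0.46, -0.22 and -0.84 in Min Dep hearts and -0.69, 0.25 and -0.18 in sham hearts. Both were highest in Max Dep replicate 1, the heart in which Ccl2 was highest. Cxcl1, the neighbour of Cxcl2 on chromosome 5 with the same NF-kappaB-type run of letters in the promoter shown above, had -0.39, 0.15 and -0.50 in Max Dep hearts, 1.74, 0.013 and -1.37 in Min Dep hearts and -0.69, 0.94 and -0.34 in sham hearts. Its highest heart was Min Dep replicate 1, as was that of Cxcr2 itself, which had -0.23, 0.77 and -0.67 in Max Dep hearts, 1.82, -0.47 and -0.39 in Min Dep hearts and 0.19, -1.01 and -0.33 in sham hearts. CLP minus sham differences were -0.027 ± 0.74 for Cxcl1, 0.91 ± 0.81 for Cxcl2, 0.28 ± 0.86 for Cxcl5 and 0.52 ± 0.66 for Cxcr2. Each of these was about as large as its error or smaller. Cxcl13, the B-cell-attracting ligand of Cxcr5, was highest in the same heart as Cxcl2, with 2.39, -0.66 and -0.71 in Max Dep hearts, -0.03, 0.26 and 0.76 in Min Dep hearts and -0.98, -0.019 and -0.98 in sham hearts. Without replicate 1 the Max Dep minus sham difference was 0.068 ± 0.35 for Cxcl2, -0.54 ± 0.52 for Cxcl5 and -0.023 ± 0.40 for Cxcl13.

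**Figure D2:**
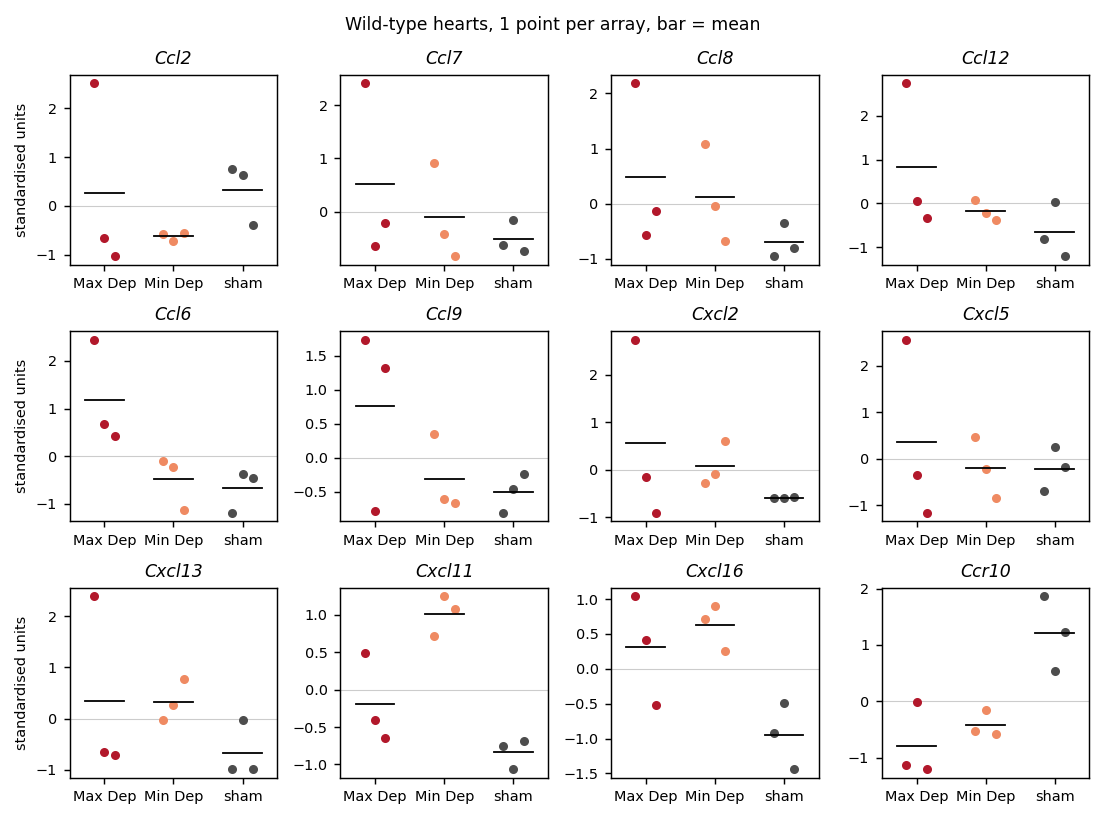
Standardised value of selected members in each wild-type heart, Max Dep, Min Dep and sham from left to right, with 1 point per array and a bar at the group mean. For Ccl2, 1 Max Dep point at 2.51 stands apart from the others, while for Ccr10 all CLP points lie below all sham points.

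Counted over all members, Max Dep replicate 1 held the highest of the 9 wild-type values for 11 of 49 (22.4%), against 10.3% of all genes. They were Ccl2, Ccl6, Ccl7, Ccl8, Ccl9, Ccl12, Cxcl2, Cxcl5, Cxcl13, Cxcl16 and Ccr1. It held values above 2 for 8 members (16.3%), against 1.98% of all genes. Ligands averaged 0.52 and receptors -0.33 in this heart, so its high values were on the ligand side. Max Dep replicate 2 was the highest heart for 0 members, against 9.47% of all genes. Min Dep replicate 2 was highest for 10 (20.4%), against 13% of all genes. They were Ccl25, Cxcl9, Cxcl11, Ccr2, Ccr7, Ccr9, Cxcr3, Cxcr6, Cx3cr1 and Xcr1. This heart was also the highest of the wild type on the markers of B cells (1.29), dendritic cells (1.48) and T and natural killer cells (0.86). Their part in its values was not tested. WT sham replicate 1 was highest for 8 (16.3%), against 11.3% of all genes: Ccl1, Ccl17, Ccl22, Ccr4, Ccr6, Ccr10, Cx3cl1 and Cxcl12. Monocyte and macrophage markers averaged 1.03 in Max Dep replicate 1 and 1.15 in Max Dep replicate 3, the 2 highest of the wild-type hearts, and their part in the ligand values was not tested.

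**Figure D3:**
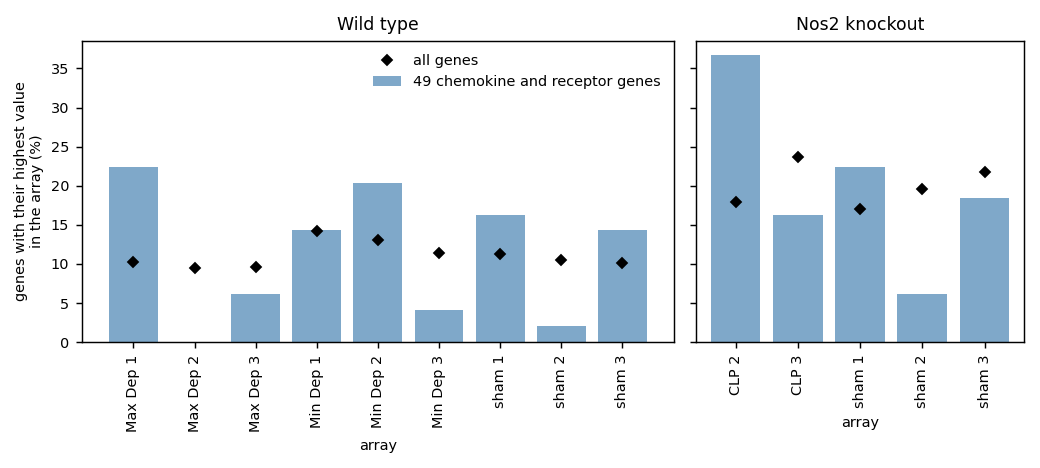
Share of genes with their highest value in each array, in percent, bars for the 49 members and diamonds for all 12393 genes. WT Max Dep replicate 1 (22.4%) and KO CLP replicate 2 (36.7%) stand above their diamonds at 10.3% and 17.9%.

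Interferon-induced ligands of the T-cell receptor Cxcr3 did not share 1 pattern either. Cxcl11 had 0.49, -0.40 and -0.65 in Max Dep hearts, 0.71, 1.25 and 1.07 in Min Dep hearts and -0.75, -1.06 and -0.68 in sham hearts. On this mean of 2 probe sets, all 6 CLP hearts were above all 3 sham hearts. The Min Dep hearts were also above the Max Dep hearts without overlap. Neither probe set alone showed both. In 1 of them Max Dep replicates 1 and 3, at -0.52 and -0.96, lay among the sham hearts. In the other, Max Dep replicate 1 was above every Min Dep heart (0.91 or less). The CLP minus sham difference of Cxcl11 was 1.24 ± 0.28 (adjusted p = 0.0972). It was 1.84 ± 0.32 for Min Dep (adjusted p = 0.0820) and 0.64 ± 0.32 for Max Dep. Without Max Dep replicate 1 the Max Dep minus sham difference was 0.31 ± 0.21, and without WT sham replicate 1 the CLP minus sham difference was 1.28 ± 0.35. In C57BL/6 mice the Cxcl11 gene is known to carry a frameshift, so its transcript does not stand for a working protein. Cxcl9 had -0.68, -1.39 and -0.12 in Max Dep hearts, -0.85, 1.89 and 0.32 in Min Dep hearts and 1.38, -0.40 and -0.093 in sham hearts. Cxcl10, the member with both motif types in its promoter, had 0.76, 0.11 and -1.03 in Max Dep hearts, 1.70, -0.32 and -1.06 in Min Dep hearts and 0.30, -0.081 and -0.83 in sham hearts. For both genes the groups overlapped, with differences of -0.43 ± 0.73 and 0.23 ± 0.73. Cxcr3, their receptor, had -0.11, 1.28 and 0.05 in Max Dep hearts, -0.62, 1.82 and -0.55 in Min Dep hearts and 0.72, -0.81 and -1.52 in sham hearts, with its highest heart the same as that of Cxcl9 and Cxcl11.

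Among the membrane-bound ligands, Cxcl16 is a scavenger receptor of macrophages as well as the ligand of Cxcr6. It had 1.04, 0.42 and -0.51 in Max Dep hearts, 0.71, 0.90 and 0.26 in Min Dep hearts and -0.92, -0.49 and -1.44 in sham hearts. On this mean of 2 probe sets, only Max Dep replicate 3 overlapped the sham hearts. The difference was 1.42 ± 0.40 (adjusted p = 0.143), or 1.43 ± 0.50 without WT sham replicate 1. In 1 probe set, at 1.86 ± 0.39, every CLP heart (0.027 or more) was above every sham heart (-0.60 or less). In the other, at 0.98 ± 0.65, Max Dep replicate 3 was at -1.41, among the sham hearts. Cx3cl1, the endothelial ligand that holds Cx3cr1-bearing monocytes, had -0.66, 0.61 and 0.45 in Max Dep hearts, -0.52, -0.29 and -1.13 in Min Dep hearts and 0.78, 0.30 and 0.51 in sham hearts. Min Dep hearts were below sham hearts without overlap, at a difference of -1.18 ± 0.40 (adjusted p = 0.237), while 2 Max Dep hearts lay among them. Its 3 probe sets disagreed in sign, as did those of Cxcr6. Cx3cr1 had -0.19, -0.64 and 1.30 in Max Dep hearts, -0.71, 1.74 and 0.35 in Min Dep hearts and -1.27, 0.05 and -0.44 in sham hearts, with the groups overlapping.

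Ccr10 had the lowest difference from sham, followed by Ccl24 and Ccl17. Ccr10, the receptor for Ccl27a and Ccl28 on skin-homing T cells and plasma cells, had -1.13, -0.021 and -1.20 in Max Dep hearts, -0.53, -0.15 and -0.59 in Min Dep hearts and 1.86, 0.54 and 1.22 in sham hearts. All 6 CLP hearts lay below all 3 sham hearts, and the difference was -1.81 ± 0.39 (adjusted p = 0.0904), or -1.49 ± 0.40 without WT sham replicate 1. Ccl27a, a keratinocyte ligand of Ccr10, had 0.56, 0.77 and 0.61 in Max Dep hearts, -0.29, 0.50 and 0.86 in Min Dep hearts and 0.59, -1.17 and -2.23 in sham hearts, a difference on the opposite side, of 1.44 ± 0.63, or 2.20 ± 0.41 without WT sham replicate 1. Ccl17, a ligand of Ccr4 on type 2 helper T cells, had -0.53, -1.25 and -1.09 in Max Dep hearts, -0.44, 0.33 and 0.035 in Min Dep hearts and 2.22, 0.16 and 0.44 in sham hearts. Max Dep hearts lay below sham hearts without overlap. The CLP minus sham difference of -1.43 ± 0.51 (adjusted p = 0.216) became -0.79 ± 0.29 without WT sham replicate 1, the highest heart. Ccl22, the other Ccr4 ligand, had -1.90, -0.13 and -0.47 in Max Dep hearts, -0.23, -0.068 and 0.69 in Min Dep hearts and 1.64, 1.00 and -0.58 in sham hearts, and its difference was -1.04 ± 0.64, or -0.56 ± 0.68 without that sham heart. The eosinophil ligand Ccl24 had -0.71, 0.029 and -1.22 in Max Dep hearts, 0.40, -1.51 and -0.052 in Min Dep hearts and 1.19, 0.014 and 1.71 in sham hearts, with a difference of -1.48 ± 0.60. Ccl11, the eotaxin of the same receptor Ccr3, had -0.56, -0.35 and 0.052 in Max Dep hearts, -0.17, 0.46 and -1.70 in Min Dep hearts and -0.40, 2.47 and 0.033 in sham hearts. WT sham replicate 2, at 2.47, stood far above the others, and the other sham hearts lay among the CLP hearts. The difference of -1.08 ± 0.79 leaned on that heart. Without WT sham replicate 1, which keeps the high heart in, it was -1.63 ± 0.87. Ccr3 itself had 0.06, 0.31 and 1.35 in Max Dep hearts, 0.16, 1.20 and -0.99 in Min Dep hearts and 0.61, -1.10 and -1.64 in sham hearts and lay on the higher side, at 1.06 ± 0.71, or 1.72 ± 0.68 without WT sham replicate 1.

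By an exact two-sided permutation test over the 84 splits of 6 CLP against 3 sham hearts, unadjusted, the smallest p among the members was 0.0119 for Ccr10, the smallest these splits allow. Ccl17 and Cxcl16 had an exact permutation p of 0.0238 and Cxcl11 of 0.0357. The test was run on the members only, so no share over all genes stands beside these values.

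The remaining ligands of the set had unadjusted p above 0.05 between CLP and sham hearts. Ccl3, a Ccr1 ligand of activated macrophages, had 0.12, -1.05 and -1.91 in Max Dep hearts, 1.07, -0.035 and 1.34 in Min Dep hearts and 0.24, -0.16 and 0.14 in sham hearts. Ccl4, its neighbour on chromosome 11 and likewise a product of activated macrophages, had 1.06, -1.11 and -0.47 in Max Dep hearts, 1.57, 0.76 and -0.46 in Min Dep hearts and -0.52, -0.72 and -0.54 in sham hearts, and only Min Dep hearts cleared the sham hearts. Ccl5, the T-cell and platelet chemokine, had -0.36, 1.01 and -0.39 in Max Dep hearts, 0.95, 0.18 and -0.69 in Min Dep hearts and -1.93, -0.23 and 1.45 in sham hearts. None of these had a CLP minus sham difference beyond 1 standardised unit. Cxcl12, the stromal ligand that keeps Cxcr4-bearing progenitors in bone marrow, had 0.58, -1.63 and 0.96 in Max Dep hearts, -0.40, -0.44 and -1.44 in Min Dep hearts and 1.09, 0.81 and 0.20 in sham hearts. On this mean of 2 probe sets its difference was -1.10 ± 0.65. In 1 probe set, at -1.82 ± 0.54 (limma, adjusted p = 0.136), every CLP heart (0.041 or less) lay below every sham heart (0.93 or more). The other was at -0.37 ± 0.78, and there the groups overlapped. Cxcl14, a ligand of epithelium and fibroblasts, had 0.68, -0.81 and 0.70 in Max Dep hearts, -0.44, 0.51 and -0.67 in Min Dep hearts and -1.82, 0.78 and 1.12 in sham hearts, at -0.03 ± 0.79. Its 2 probe sets gave opposite signs, 0.87 and -0.93, so this mean stands for neither. Xcl1, the lymphocyte ligand of the dendritic-cell receptor Xcr1, had -0.18, -0.72 and -0.91 in Max Dep hearts, -1.12, 0.97 and -0.26 in Min Dep hearts and 0.47, -0.37 and 2.33 in sham hearts, with 1 sham heart far above the rest. The ligands not given per heart were Ccl1, Ccl20, Ccl25, Ccl28 and Cxcl15. The first 4 had differences between -0.38 and 0.46, and Cxcl15, a lung ligand, was at -1.08.

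The receptors not yet described overlapped between CLP and sham hearts. Ccr2, the receptor of Ccl2, Ccl7 and Ccl12 on inflammatory monocytes, had -0.19, 0.64 and 0.071 in Max Dep hearts, -0.16, 1.51 and -1.31 in Min Dep hearts and -0.81, 0.41 and -0.058 in sham hearts. This mean was not high in the heart in which its 3 ligands were, but its 3 probe sets had 1.47, -0.55 and -1.49 there. The CLP minus sham differences of these probe sets also disagreed in sign. Cxcr4 had 0.33, 0.26 and 1.45 in Max Dep hearts, -2.18, 1.12 and 0.21 in Min Dep hearts and 0.083, -0.40 and -0.32 in sham hearts, with Min Dep replicate 1 far below. Ccr6, the receptor of Ccl20, had -1.54, 0.048 and -0.94 in Max Dep hearts, -0.17, 0.08 and 0.096 in Min Dep hearts and 1.66, 1.36 and -0.66 in sham hearts, and its difference was -1.19 ± 0.61, or -0.75 ± 0.67 without WT sham replicate 1, its highest heart. Ccr9, a gut-homing receptor for Ccl25, had 0.55, -0.42 and -0.83 in Max Dep hearts, -0.083, 1.78 and 0.63 in Min Dep hearts and -0.64, -0.12 and -0.77 in sham hearts. On this mean of 3 probe sets its Min Dep hearts lay above the sham hearts, narrowly, at -0.083 against -0.12. In 1 of the probe sets Min Dep replicate 1, at -1.12, was below WT sham replicates 1 and 2, at 0.0009 and 0.12. The 4 other receptors (Ccr4, Cxcr5, Cxcr6 and Xcr1) had differences between -0.43 and 0.90.

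Between the septic groups, Max Dep against Min Dep asks which members go with the label that names the depression. By limma none of the members passed, as none of all genes did (0%), and 7 members were at an unadjusted p under 0.05, 14.3%, against 9.81% of all genes. In 6 of these 7 (12.2% of the members) the value was lower in Max Dep hearts, against 4.6% of all genes. Ccr7, the lymph-node homing receptor, had -0.042, -1.04 and -2.08 in Max Dep hearts, 0.78, 0.78 and 0.58 in Min Dep hearts and 0.55, -0.39 and 0.64 in sham hearts, with Max Dep hearts all below Min Dep hearts and a difference of -1.77 ± 0.55 (adjusted p = 0.443). Ccr1l1, a Ccr1-like receptor gene beside Ccr1, had -1.56, -0.41 and -1.06 in Max Dep hearts, 1.29, 1.04 and 0.067 in Min Dep hearts and -0.35, 0.097 and 0.61 in sham hearts, at -1.81 ± 0.47 (adjusted p = 0.393). Ccr8, the receptor of Ccl1, had -0.82, -1.14 and -0.20 in Max Dep hearts, 1.67, -0.40 and 1.24 in Min Dep hearts and -0.21, -0.41 and -0.14 in sham hearts, and there 1 Min Dep heart overlapped. Lymphoid and dendritic-cell markers stood lower with these members. In Max Dep hearts 10 of 10 T and natural killer cell markers (median -0.68) and 4 of 4 dendritic-cell markers (-0.89) were lower. So were 6 of 6 B-cell markers (-1.48, 3 at an unadjusted p under 0.05). Min Dep replicate 2 was highest on each list. The other Min Dep hearts averaged 0.25 and -0.15 on T and natural killer cell markers, against -0.88 to 0.15 in Max Dep hearts. On dendritic-cell markers they averaged -0.39 and 0.33, against -0.55 to -0.17. Only on B-cell markers (0.044 and 0.33, against -0.83 to -0.58) did they clear the Max Dep hearts. Of the monocyte and macrophage markers, 13 of 15 were higher in Max Dep hearts (median 0.61). The part of these cell types in the differences of the members was not tested. Ccl3 was at -1.74 ± 0.60, Cxcl17, a mucosal chemoattractant, at -1.56 ± 0.60 and Cxcl11 at -1.20 ± 0.32. Cxcl17 values were -0.70, -0.57 and -1.96 in Max Dep hearts, 0.67, 0.85 and -0.065 in Min Dep hearts and -0.18, 0.27 and 1.52 in sham hearts, and Max Dep hearts lay below both other groups. Of the 7, only Ccl6, at 1.67 ± 0.62, was higher in Max Dep hearts, or 1.03 ± 0.42 without Max Dep replicate 1. Groups did not overlap for 7 members, 14.3%, against 15.3% of all genes. The median difference over the members was -0.30, against -0.08 over all genes, and -0.43 without Max Dep replicate 1.

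Set against sham hearts apart, by limma 0 members passed for Max Dep hearts, against 0.452% of all genes, and 0 for Min Dep hearts, against 0.0565%. At an unadjusted p under 0.05, 6 members were called for Max Dep hearts, against 16.7% of all genes, and 4 for Min Dep hearts, against 16.4%. Non-overlap was seen for 8 members against 26.4% of all genes in Max Dep hearts, and for 9 members against 23.4% in Min Dep hearts. These 2 comparisons share the sham hearts. Cxcl16 and Ccr10 were among the members under 0.05 in each, with Cxcl16 at 1.27 ± 0.46 and 1.57 ± 0.46 and Ccr10 at -2.00 ± 0.46 and -1.63 ± 0.46 in Max Dep and Min Dep hearts.

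In knockout hearts the comparison is of 2 CLP hearts with 3 sham hearts. No member passed by limma with moderated statistics, and neither did any other gene (0%). There were 8 members at an unadjusted p under 0.05, 16.3%, against 11.9% of all genes. Of these, 6 were higher, 12.2% of the members, against 5.83% of all genes, and 2 lower, against 6.08%. The groups did not overlap for 19 members (38.8%), 12 higher and 7 lower, against 28.9% of all genes, 15% higher and 14% lower. The median difference was 0.07 log units, against 0.03 over all genes. The 5′ minus 3′ difference of the control probe sets averaged -2.06 and -0.78 in CLP knockout hearts, against -1.97, 0.21 and 0.98 in sham knockout hearts, and as a covariate it moved Ccl22 to -0.44, against -0.75 without it.

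Myeloid and stromal ligands had the highest knockout differences. Cxcl13 had 4.56 and 2.00 in CLP knockout hearts, against -0.40, -0.25 and -0.0077 in sham knockout hearts. The log difference was 3.50 ± 0.77 (adjusted p = 0.151), or 2.22 ± 0.57 without the higher CLP heart. Ccl9 had 3.47 and 1.75 in CLP knockout hearts, against -0.039, -0.14 and -0.48 in sham knockout hearts, at 2.83 ± 0.60 (adjusted p = 0.140). Ccl6 had 2.45 and 0.77 in CLP knockout hearts, against 0.017, -0.055 and -0.88 in sham knockout hearts, at 1.91 ± 0.63, or 1.07 ± 0.65 without that heart. In all 3 the CLP hearts were above every sham heart. Cxcl14 had 2.12 and 1.21 in CLP knockout hearts, against -0.81, -0.22 and -0.90 in sham knockout hearts, again without overlap, at 2.31 ± 0.49 (adjusted p = 0.141). Cxcl2 had 1.21 and 1.88 in CLP knockout hearts, against -1.23, -1.51 and 0.48 in sham knockout hearts, at 2.30 ± 0.70 (adjusted p = 0.264). Unlike the others named, Cxcl2 was higher in KO CLP replicate 3 than in replicate 2.

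The Ccr2 ligands leaned on KO CLP replicate 2 in the same way. Ccl2 had 1.60 and 0.26 in CLP knockout hearts, against -0.52, -0.68 and 0 in sham knockout hearts. Ccl7 had 2.01 and -0.05 in CLP knockout hearts, against 0.018, -0.026 and -0.81 in sham knockout hearts. Ccl12 had 2.61 and 0.17 in CLP knockout hearts, against -0.44, -0.41 and 0 in sham knockout hearts. In each, replicate 2 was well above all others, and the other CLP heart was near the sham hearts. Log differences were 1.33 ± 0.55, 1.25 ± 0.70 and 1.67 ± 0.74, and without replicate 2 they were 0.66 ± 0.60, 0.22 ± 0.64 and 0.45 ± 0.58. Ccl8 had 0.56 and 0 in CLP knockout hearts, against -0.22, -0.012 and -1.28 in sham knockout hearts, a smaller spread. Cxcl1 had 1.96 and -0.15 in CLP knockout hearts, against -0.57, -0.45 and 0 in sham knockout hearts, with the same CLP heart alone on top, while Cxcl5 had 0.083 and -0.63 in CLP knockout hearts, against 0.61, 0 and -0.68 in sham knockout hearts and did not follow.

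On the lower side stood Cxcl9, with -1.40 and -1.61 in CLP knockout hearts, against 3.15, 0.83 and 2.24 in sham knockout hearts. Both CLP hearts were below every sham heart, and the log difference was -3.58 ± 0.71 (adjusted p = 0.128), the largest in size among the members. Without KO sham replicate 2 it was -4.20, and the difference was 3.48 for Cxcl13, 2.87 for Ccl9 and 2.52 for Cxcl14. Its neighbours on chromosome 5 were closer to sham: Cxcl10 had 0 and -0.19 in CLP knockout hearts, against 0.77, -0.0012 and 0.96 in sham knockout hearts, and Cxcl11 had -0.73 and -0.37 in CLP knockout hearts, against 0.59, -0.21 and -0.34 in sham knockout hearts. Endothelial markers averaged -2.23 to -0.38 in CLP knockout hearts, against 0.67 to 1.36 in sham knockout hearts, with 7 of 8 genes lower. Their part in the value of Cxcl9 was not tested. Cxcl17 had -1.79 and -0.64 in CLP knockout hearts, against 0.018, 0.024 and 1.04 in sham knockout hearts, at -1.58 ± 0.57, or -1.004 ± 0.69 without KO CLP replicate 2. Cxcr4 had -1.38 and -0.16 in CLP knockout hearts, against 0.018, -0.27 and 0.49 in sham knockout hearts and Ccl22 had -0.81 and -0.33 in CLP knockout hearts, against -0.18, 0 and 0.73 in sham knockout hearts, at -0.85 ± 0.54 and -0.75 ± 0.48. Without KO CLP replicate 2 the difference of Cxcr4 was -0.24 ± 0.61. Ccr3 had -1.40 and 0.48 in CLP knockout hearts, against 1.23, 2.05 and -1.26 in sham knockout hearts, a wide spread in both groups, at -1.13 ± 1.07, or -0.19 ± 1.32 without KO CLP replicate 2 and -0.44 without KO sham replicate 2.

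**Figure D4:**
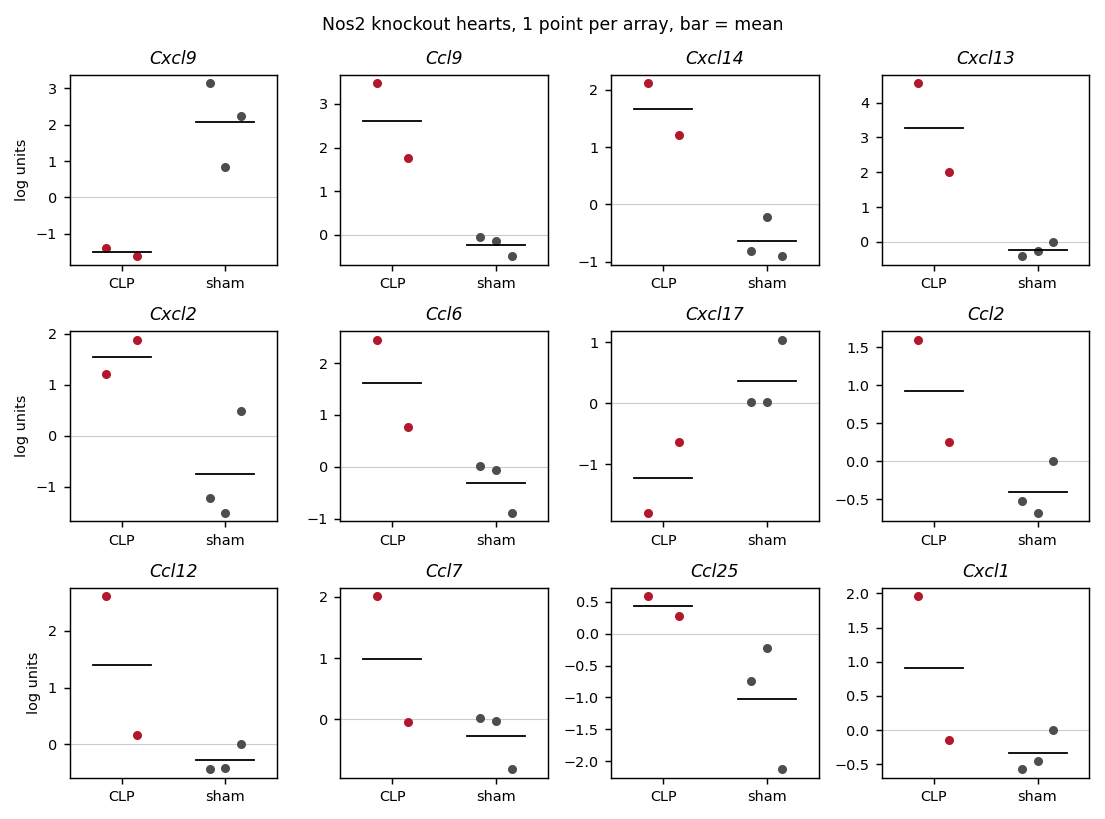
Centred log value of selected members in each knockout heart, CLP left of sham, 1 point per array and a bar at the group mean, without KO CLP replicate 1. For Cxcl9 both CLP points lie below the sham points, and for Cxcl13 and Ccl9 both lie above.

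The other ligands of the panel lay closer to sham in knockout hearts. Ccl3 had 0.35 and -0.13 in CLP knockout hearts, against 0.018, 0.014 and -0.17 in sham knockout hearts. Ccl4 had 0.17 and -0.18 in CLP knockout hearts, against -0.068, 0 and -0.70 in sham knockout hearts. Ccl5 had 0.076 and -0.45 in CLP knockout hearts, against 1.10, -0.46 and 0 in sham knockout hearts. The groups overlapped for all 3 of these ligands, with log differences of 0.16 ± 0.41, 0.25 ± 0.45 and -0.40 ± 0.58. Cxcl16 had 0.50 and -0.035 in CLP knockout hearts, against 0.097, -0.11 and -0.79 in sham knockout hearts, at 0.50 ± 0.48. Cx3cl1 had 0.069 and -0.074 in CLP knockout hearts, against -0.49, -0.33 and -0.094 in sham knockout hearts, at 0.30 ± 0.41, and its probe sets disagreed in sign here too. Cxcl12 had 0.33 and -1.51 in CLP knockout hearts, against -0.064, 0.29 and 0.10 in sham knockout hearts, at -0.70 ± 0.62, or -1.62 ± 0.56 without KO CLP replicate 2. The 2 probe sets of Cxcl12 gave opposite signs, -2.82 and 1.43, so its mean stands for neither. Ccl11 had 0.23 and -0.0065 in CLP knockout hearts, against 0.018, -0.52 and -0.59 in sham knockout hearts, at 0.47 ± 0.43, on the other side of sham than in wild-type hearts. Xcl1 had 1.15 and -0.24 in CLP knockout hearts, against 2.66, 2.86 and -1.99 in sham knockout hearts, the widest spread among the sham hearts.

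Receptors in knockout hearts had differences between -1.13 for Ccr3 and 0.72 for Ccr9. Ccr1 had 0.17 and 0.27 in CLP knockout hearts, against -0.53, -0.061 and 0.23 in sham knockout hearts. Ccr2 had 0.15 and 0.33 in CLP knockout hearts, against -0.16, -0.47 and -0.33 in sham knockout hearts. Cx3cr1 had -0.045 and 0.59 in CLP knockout hearts, against -0.33, -0.69 and 0.0057 in sham knockout hearts. Of the 3, only Ccr2 separated the groups, and the log differences were 0.34 ± 0.44, 0.56 ± 0.40 and 0.61 ± 0.46, the last 0.92 ± 0.60 without KO CLP replicate 2. Cxcr2, the neutrophil receptor, had 0.054 and 0.17 in CLP knockout hearts, against -0.19, -0.00028 and 0 in sham knockout hearts, at 0.18 ± 0.40. Cxcr3 had -0.26 and -0.48 in CLP knockout hearts, against 0.11, 0 and -0.71 in sham knockout hearts, at -0.17 ± 0.46, and Ccr7 had 0 and -0.85 in CLP knockout hearts, against 0.37, 0.12 and -1.12 in sham knockout hearts, at -0.22 ± 0.60. Ccr10, the lowest member in wild-type CLP hearts, had 0 and -1.44 in CLP knockout hearts, against 0.17, -1.40 and 0.12 in sham knockout hearts. Here the groups overlapped, at -0.35 ± 0.70. The lowest adjusted p among these 7 receptors was 0.679.

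KO CLP replicate 2 was the highest of the 5 knockout hearts used for 18 members (36.7%), against 17.9% of all genes. In that heart ligands averaged 0.64 log units and receptors -0.36, the same side for ligands as in WT Max Dep replicate 1. KO CLP replicate 2 was also the highest knockout heart on the monocyte and macrophage list, at 2.51 against 1.89 in replicate 3, and on the neutrophil list, at 2.65 against 1.35. Their part in the ligand values was not tested. Of the members highest in these 2 hearts, 8 were the same: Ccl2, Ccl6, Ccl7, Ccl8, Ccl9, Ccl12, Cxcl13 and Cxcl16. That is 72.7% of the wild-type list and 44.4% of the knockout list, against 29.4% and 16.9% over all genes. Of those 8, all but Cxcl13 lie on chromosome 11, as do 14 of the 49 members. Several of them are neighbours there, and a part of position was not tested. Wild-type and knockout CLP minus sham differences had the same sign for 30 of 49 members (61.2%), against 55.1% of all genes, and whether the genotypes differed was not tested. The plot of differences sets the members of the genotypes side by side, on different scales.

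**Figure D5:**
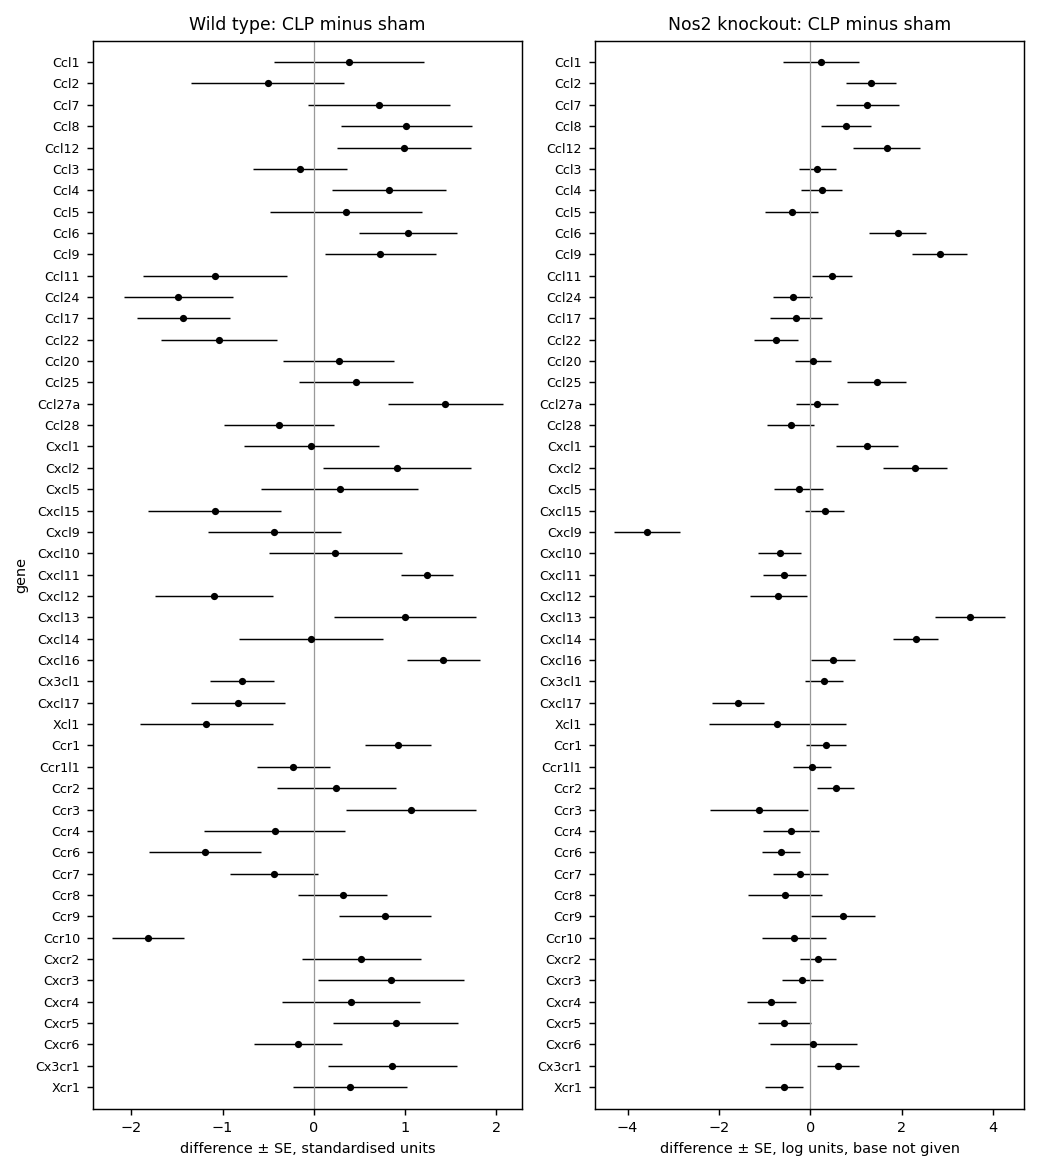
CLP minus sham difference of every member with its SE, wild type in standardised units on the left and knockout in log units on the right. Ccr10 at -1.81 leads the wild-type panel on the low side, and Cxcl9 at -3.58 and Cxcl13 at 3.50 are the ends of the knockout panel; the scales cannot be compared.

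Genes that act around the chemokines were counted from lists, none of whose measured genes passed an adjusted p of 0.05 in either genotype. Among 5 atypical receptors, which take up chemokines without signalling, the nearest was Ackr4, the scavenger of Ccl19, Ccl21 and Ccl25, at -2.02 ± 0.30 in wild-type hearts (adjusted p = 0.0543). The 7 chemokines named outside the scheme had a median of 0.60 in wild-type and 0.89 in knockout hearts, with the platelet chemokines Pf4 at 2.61 ± 0.41 (adjusted p = 0.0924) and Ppbp at 3.39 ± 0.46 (adjusted p = 0.0870) in the knockout. Of 29 genes of receptor signalling, 15 were higher and 14 lower in wild-type CLP hearts, and 19 higher and 10 lower in knockout CLP hearts. Rac2, the GTPase of blood-cell migration, was at 1.87 ± 0.46 in wild-type and 3.15 ± 0.46 in knockout hearts. Of 26 inducers of chemokine genes, 16 were higher in wild-type and 17 in knockout CLP hearts, with medians of 0.22 and 0.22. Il1b, which induces many of these ligands, was at 2.28 ± 0.65 in knockout hearts (adjusted p = 0.235). The 12 chemokine-cleaving proteases had medians of 0.36 in wild-type and -0.31 in knockout hearts, and the 13 endothelial arrest molecules 0.17 and 0.17. Of 8 heparan sulfate carriers, which hold chemokines on the vessel wall, 7 were lower in wild-type CLP hearts, at a median of -1.12, and 5 in knockout CLP hearts. Medians over all genes were 0.02 and 0.03.

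Markers of several cell types that make or read chemokines stood apart between CLP and sham hearts. In a whole-heart sample, fewer cells of a type and less RNA per cell cannot be told apart. All 15 monocyte and macrophage markers were higher in wild-type CLP hearts, of which Tyrobp and Fcer1g rose (adjusted p = 0.0290 and 0.0307), and 14 of 15 were higher in knockout CLP hearts. The list averaged 0.15 to 1.15 in wild-type CLP hearts, against -1.37 to -0.67 in sham hearts. Of 9 neutrophil markers, 7 were higher in wild-type and 8 in knockout CLP hearts, and S100a8 and S100a9 rose in the wild type (adjusted p = 0.0395 and 0.0498). Wild-type CLP hearts averaged -0.092 to 0.82 on the neutrophil list, against -1.09 to -0.35 in sham hearts. All 8 fibroblast and all 6 smooth muscle and pericyte markers were lower in wild-type CLP hearts, at medians of -1.57 and -1.37, and 6 and 6 were lower in knockout CLP hearts. Endothelial markers had a median of 1.03 in wild-type and -2.94 in knockout hearts. The medians in wild-type and knockout hearts were -0.22 and -0.044 for T and natural killer cells, -0.13 and -0.78 for B cells, and 0.10 and -0.39 for dendritic cells. They were 0.60 and 1.06 for platelets, -1.58 and -2.48 for adipocytes and -0.41 and -1.17 for heart muscle cells. The part of these cells in the chemokine values was not tested.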

How the data were processed

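Total RNA from whole hearts was hybridised to 15 short-oligonucleotide arrays of 22690 probe sets. The authors deposited 2 value tables. What software made them was not given in the sources used here. Wild-type values as deposited are a standardised score: with a linear step per array undone, every probe set had an SD of 1. The deposited knockout score acts like a log difference centred per probe set, ranging over -7.78 to 8.18 with the base not given. Arrays have no depth; their number sets the precision.

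Control probe sets (64) were left out. Probe sets paired with 1 gene by the platform annotation (20380) were averaged per gene. Of the members, 35 had 1 probe set, 11 had 2 and 3 had 3. Another 4 probe sets that list a chemokine with other genes were not used, and Ccl19 and Ccl21a were not measured alone. The groups were compared with limma 3.58.1 in R 4.3.3: unmoderated statistics with 6 residual degrees of freedom for all 9 wild-type arrays, eBayes for the knockout. Both fits were tested on simulated data. Figures were drawn with matplotlib 3.10.9 in Python 3.11.15.

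Each array has a code in the labels, but where nothing says that hearts came from separate mice, p-values measure only the spread between these samples. Members and gene lists were chosen with earlier results of these data known. Genes named per array are the 5 highest and 5 lowest differences per comparison and a panel of 29 genes. Promoters come from RefSeq's GRCm38.p6; 36 members had a window.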

Additional observations from a re-analysis of the deposited data

Results flagged for a closer look

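Among the 6 wild-type CLP hearts, 1 heart stood apart from the others by Dixon's gap over range beyond its critical value for 5 of 49 members (10.2%), against 8.79% of all genes. Chance flags about 1 in 20 groups. Max Dep replicate 1 was high for Ccl12 (0.853) and Ccl2 (0.868). Max Dep replicate 2 was low for Ccl1 (0.689). Min Dep replicate 1 was low for Ccl27a (0.683) and Cxcr4 (0.661).

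For 2 of the 19 members whose CLP minus sham differences had opposite signs in the genotypes, every CLP heart also lay on its side of the sham mean, and neither difference between genotypes was tested. For Ccl11 every wild-type CLP heart lay below the sham mean and both CLP knockout hearts above theirs, at a knockout difference of 0.47. The wild-type sham mean of Ccl11, 0.70, leaned on WT sham replicate 2 at 2.47. The other wild-type sham hearts, at -0.40 and 0.033, lay among the CLP hearts. In the knockout, KO sham replicate 1 (0.018) was above KO CLP replicate 3 (-0.0065). For Cxcl11 every wild-type CLP heart lay above the sham mean and both CLP knockout hearts below theirs, at -0.56. These Cxcl11 values are means of 2 probe sets. In 1 of them Max Dep replicates 1 and 3 lay among the sham hearts.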

How the results depend on the processing

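By limma with adjustment the count of members was 0 in all 5 comparisons, and it stayed 0 with the other moderation of the variance, with single probe sets, with the control-probe 5′ minus 3′ difference as a covariate, with the array step undone (wild type), with only the groups compared (the wild-type group pairs), and without each array in turn, where the range was 0 to 0. At an unadjusted p under 0.05 the counts were 6 for CLP, 6 for Max Dep and 4 for Min Dep against sham, 7 for Max Dep against Min Dep and 8 for knockout CLP. By unadjusted exact permutation 7 of the 49 members were under 0.05 for wild-type CLP. That test was run on the members only, so the count has no share over all genes beside it. It is not read as a result about the members. With all 6 knockout arrays, which adds the CLP column that lies between the others, 2 members passed, Cxcl9 at -3.49 (adjusted p = 0.0425) and Cxcl14 at 2.12 (adjusted p = 0.0467), with 295 of all genes. Over the whole table the wild-type CLP count of 89 genes became 0 with eBayes, 179 with the array step undone and 1 with the covariate, while single probe sets gave 481 genes, and 0 to 186 without 1 array. The cause was not tested. Direction was followed only for the 5 highest and 5 lowest members of the wild-type CLP and of the knockout CLP comparison. Of 200 pairs of such a member and a setting, 198 kept direction and side of the threshold, 2 passed it and 0 reversed. The covariate and single arrays moved several differences by over 1.5 times, as given beside them. Some members outside these turned sign between wild-type CLP and sham hearts. Without WT sham replicate 1, Cxcl9 was at 0.11, against -0.43, and Ccl5 at -0.49, against 0.35. Ccr4 was then at 0.49, against -0.43, and Ccr2 at -0.08, against 0.25. Without Max Dep replicate 1, Cxcl5 was at -0.27, against 0.28. No paired analysis was possible because the labels give no replicate numbers shared between groups. Dim probe sets could not be filtered without intensities, and 3 arrays per group, or 2 for knockout CLP, limit what can be called.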
